A study of Homo sapiens with 4 samples.

Results

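Molecular chaperones bind unfolded or partly folded proteins and help them reach or regain their native shape. HSP70 proteins grip short hydrophobic stretches in a cycle driven by ATP, J-domain proteins start that cycle, nucleotide exchange factors such as HSP110 and the BAG proteins end it, and the adaptor STIP1 hands clients on to HSP90. The ring complex TRiC (also called CCT) folds actin, tubulin and many propeller-shaped proteins, and HSF1 is the transcription factor that drives many of these genes after heat or other protein damage by binding heat shock elements in their promoters.

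The genes were taken by symbol: names that begin with HSPA, HSPB, HSPD, HSPE, HSP90A, DNAJA, DNAJB, DNAJC or CCT and a number, together with HSPH1, TCP1, HSF1, BAG1, BAG3 and STIP1. Of 20226 genes listed in each table, 97 matched. The 14 pseudogenes and the endoplasmic reticulum genes HSPA5, DNAJB9, DNAJB11 and DNAJC3 were left out, which left 79 members. Of these, 61 had at least 5 TPM (transcript abundance per unit of length, scaled to a fixed sum in each library) in 2 or more libraries and could be tested. The members are mostly cytosolic, but the symbol rule also takes in proteins of other compartments. Among them are the mitochondrial proteins HSPA9, HSPD1, HSPE1, DNAJA3, DNAJC11, DNAJC15, DNAJC19 and DNAJC30 and the endoplasmic reticulum proteins HSPA13, DNAJC1 and DNAJC10. A further 6 members are antisense or read-through loci and are set out as a group of their own. Of these only DNAJC9-AS1 was tested, and it is counted among the 61.

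The study compared Huh7 cells, an established human liver carcinoma line, expressing a hairpin RNA that targets NUP210 (labelled shNUP210, 2 libraries) with Huh7 cells that carry a control hairpin (shCon, 2 libraries, genotype given as wild type), and all 4 libraries are labelled untreated. NUP210 encodes a membrane glycoprotein of the nuclear pore. The labels do not tie the libraries to separate cultures, and they name neither the number of hairpins nor whether a clone or a pool was used. Each p-value therefore reflects variation from library to library alone, and that variation may be technical. In bulk RNA, fewer cells of a kind and less RNA per cell cannot be told apart.

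NUP210 was at 10.1 and 9.85 TPM with shNUP210 and at 32.8 and 27.3 TPM with shCon (log2 fold change -1.49, SE 0.24, limma adjusted p = 0.043). Leaving out any 1 of the 4 libraries left the log2 fold change between -1.37 and -1.62 and raised the limma adjusted p to between 0.162 and 0.167. The call was also lost with no filter (0.131), a filter of 1 TPM in 2 libraries (0.078), no variance trend (0.099) and the replicate number as a block (0.082). All 8 hepatocyte-type markers were tested, with alpha-fetoprotein (AFP) at 5450 to 6054 TPM, and APOA1, APOA2 and SERPINA1 were called lower. AFP, TTR (397 and 438 against 288 and 275 TPM) and HNF4A were not called but were higher in both knockdown libraries. Of 10 fibroblast or stellate cell markers 7 had values and summed to 86.1 and 64.7 TPM in shNUP210 against 28.3 and 34.6 TPM in shCon, with PDGFRB at 7.37 to 12.6 TPM, THY1 at 0 in 3 of the libraries and COL1A2 called higher. Of 10 immune and endothelial markers only LYZ, CD68 and CD14 had values, and LYZ was called lower; they summed to 48.1 and 25.8 TPM against 166 and 152 TPM. The part of these markers in the values below was not tested. TPM add up to a fixed total per library, and the 100 most abundant genes took 37.6 and 38.1% of it in shNUP210 against 42.8 and 43.5% in shCon. The median log2 fold change of all 10140 genes tested was 0.23, so medians of the whole set and of some families are also given relative to it. Log2 fold changes of single genes include that shift unless a scaling is named. The read depth behind these values is unknown, because TPM do not retain it.

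Heat shock elements are arrays of the 5-base unit nGAAn in alternating direction. The 250 bases upstream of each start in the RefSeq promoter table (GRCh38.p14) were searched on both strands for 3 such units in a row, that is GAA, TTC and GAA with 2 free bases between neighbours, or the reverse complement. Of 68 members with a promoter entry 6 held a match (8.82%): HSP90AA1, HSP90AB1, HSPA8, HSPA6, DNAJB6 and HSPD1. Among all 27305 genes with an entry, 152 did (0.557%). The 2-unit form GAANNTTC, which reads the same on both strands and lies within every 3-unit match, was in 18 of the 68 members (26.5%) and in 7.05% of all genes. A match is a description of the letters and not evidence of binding, and HSF1 itself was not measured on DNA here. The stretches below are shown because HSP90AB1 and DNAJB6 had the lowest limma p-values among the members, HSPA6 holds the same element but was near 0 in every library, and HSPA1A and HSPA1B are near-copies whose reads are hard to separate. Capitals mark the 3-unit element in the first 3 and GAANNTTC in the last 2. Each stretch is trimmed to bases outside GENCODE 29 exons and runs 5′ to 3′ on the gene's strand, which is plus for all 5.
HSP90AB1 (chr6:44247693-44247865): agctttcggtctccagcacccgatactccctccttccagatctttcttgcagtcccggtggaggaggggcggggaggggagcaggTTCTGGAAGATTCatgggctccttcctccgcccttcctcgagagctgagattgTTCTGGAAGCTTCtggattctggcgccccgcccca
DNAJB6 (chr7:157336774-157336965): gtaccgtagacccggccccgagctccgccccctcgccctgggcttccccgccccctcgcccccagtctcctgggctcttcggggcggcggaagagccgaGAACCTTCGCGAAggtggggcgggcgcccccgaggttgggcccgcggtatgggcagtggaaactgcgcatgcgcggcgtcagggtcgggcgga
HSPA6 (chr1:161524290-161524539): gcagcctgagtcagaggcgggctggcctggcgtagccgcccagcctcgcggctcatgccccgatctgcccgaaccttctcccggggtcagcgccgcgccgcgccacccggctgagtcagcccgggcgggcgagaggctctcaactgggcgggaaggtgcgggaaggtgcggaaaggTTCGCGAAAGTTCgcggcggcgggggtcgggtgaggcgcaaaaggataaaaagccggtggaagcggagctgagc
HSPA1A (chr6:31815293-31815463): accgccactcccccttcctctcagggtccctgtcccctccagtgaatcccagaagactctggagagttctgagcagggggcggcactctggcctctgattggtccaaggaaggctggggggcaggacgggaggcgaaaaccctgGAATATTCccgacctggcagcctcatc
HSPA1B (chr6:31827488-31827734): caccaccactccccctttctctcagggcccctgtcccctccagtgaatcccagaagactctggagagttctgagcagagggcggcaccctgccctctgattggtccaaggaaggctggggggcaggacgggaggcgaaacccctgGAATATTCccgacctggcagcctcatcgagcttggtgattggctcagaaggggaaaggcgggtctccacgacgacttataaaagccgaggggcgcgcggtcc
In the other 3 members no stretch free of GENCODE 29 exons holds every match, and only the matched letters are given. HSP90AA1 holds TTCCGGAAGGTTC, HSPA8 holds GAAAGTTCCAGAA and TTCTGGAAGGTTC, and HSPD1 holds the overlapping pair TTCTGGAAAGTTC and GAAAGTTCTGGAA.

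Across the whole set, no member passed an adjusted p of 0.05 by limma on log2(TPM + 1), against 290 of 10140 genes (2.86%; 1.79% higher and 1.07% lower). Most lay on the upper side of 0: 52 of the 61 tested members had a log2 fold change above 0 (85.2%, against 68.9% of all genes), and 40 were above the median of all genes (65.6%). The median over the tested members was 0.35, which is 0.12 above that of all genes and 0.070 above it without shCon replicate 2. At an unadjusted limma p under 0.05 there were 21 members (34.4%, against 24.3% of all genes), 19 of them higher in shNUP210 (31.1%, against 18.4% of all genes) and 2, HSPB6 and DNAJC19, lower (3.28%, against 5.95%). Both shNUP210 libraries lay above both shCon libraries for 37 of the 61 (60.7%, against 42.9% of all genes) and below them for 3 (4.92%, against 14.3%).

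These counts moved with the scaling. After trimmed-mean scaling, which moves the median of all genes to 0.01, 6 members were higher and 4 lower at an unadjusted limma p under 0.05 (9.84% and 6.56%, against 8.65% and 12.5% of all genes, or 21.1% in both directions). None passed the adjusted threshold, against 3.23% of all genes (0.769% higher and 2.47% lower), and 40 members had a log2 fold change above 0 (65.6%, against 50.6%). Non-overlap was then seen for 19 members higher and 12 lower (31.1% and 19.7%, against 26.5% and 26.6% of all genes). DNAJB6, HSP90AB1 and CCT2 had limma adjusted p-values of 0.0501, 0.0519 and 0.0531, just above the threshold. All 3 passed with a filter of 1 TPM in all 4 libraries (0.0427, 0.0460 and 0.0483) and with a pseudocount of 5 (0.0448, 0.0478 and 0.0481), and none of the members passed under any other setting run.

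Summed over the 73 members other than the antisense and read-through loci, transcripts took 0.637 and 0.627% of all TPM with shNUP210 and 0.526 and 0.511% with shCon. The groups did not overlap, as for 42.9% of single genes tested, and the ratio of the means was 1.22. That ratio is not adjusted for the shift of all genes (median log2 fold change 0.23). TPM add up to a fixed total, and the 100 most abundant genes took less of it in shNUP210. TRiC made up the largest sum of any family in every library (1316 to 1623 TPM), followed by HSP70 (843 to 1093 TPM). By family, the median log2 fold change was highest in HSP110 (0.69 over 2 members) and HSP70 (0.47 over 7), and lowest among the named families in the mitochondrial chaperonin (0.10 over 2). Relative to all genes these are 0.45, 0.24 and -0.14. The HSP70 value was 0.071 without shNUP210 replicate 2 and 0.16 without shCon replicate 2, and that of the mitochondrial chaperonin was 0.030 after quantile normalization. At 100 to 500 TPM, where HSPD1 and HSPE1 lie, the median of all genes was 0.09, near the 0.10 of the mitochondrial chaperonin. The medians of the mitochondrial chaperonin (-0.15) and of the HSF1 and co-chaperone group (-0.07) turn below 0 after trimmed-mean scaling. Those of the other named families stay above it, at 0.45 for HSP110, 0.24 for HSP70, 0.19 for HSP90 and 0.14 for DNAJB. DNAJC is at 0.11, small HSP at 0.08, and DNAJA and TRiC at 0.07 each. In the unscaled fit without shCon replicate 2, the medians of DNAJB and small HSP were -0.07 and -0.01.

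**Figure D1:**
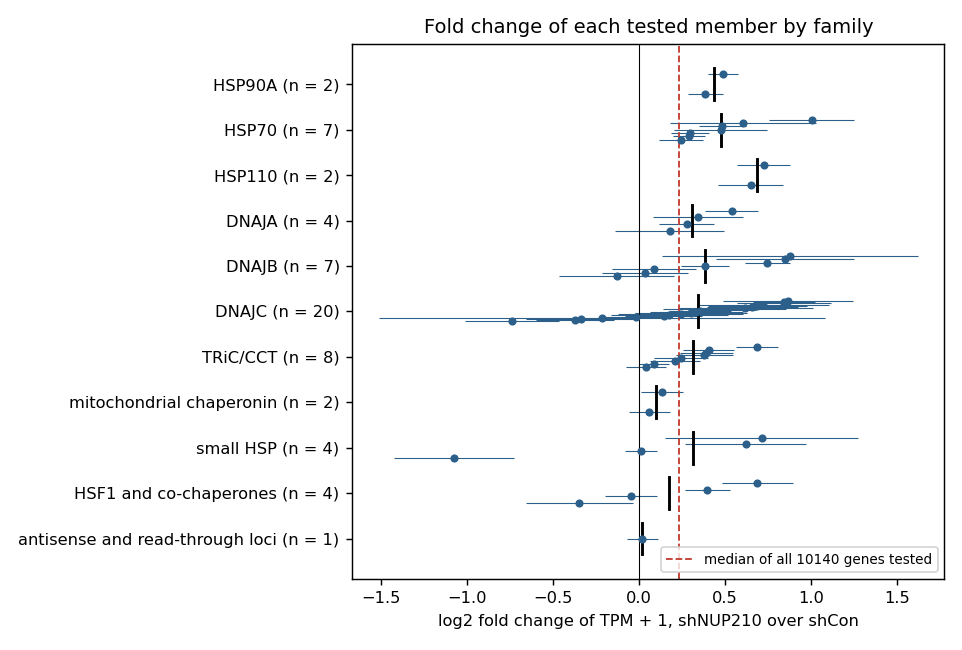
Log2 fold change of TPM + 1 (shNUP210 over shCon, horizontal axis) for each of the 61 tested members, in rows by family. Points are genes, bars are the limma SE, thick ticks are family medians and the dashed line is the median of all genes tested (0.23); all 7 tested HSP70 genes lie right of the dashed line, and HSPB6 at -1.08 is the leftmost gene.

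HSF1 (ENSG00000185122, GRCh38 chromosome 8, 144291591 to 144314722, plus strand) was at 124 and 108 TPM with shNUP210 and at 130 and 109 TPM with shCon. The groups overlapped, and the log2 fold change was -0.05 (95% confidence interval -0.42 to 0.32, limma adjusted p = 0.87). Its exons overlap those of DGAT1 by 139 bases on the other strand, and strand-aware counting is not stated. Of 6 other heat shock factors and regulators, 3 could be tested and 0 were called, the most abundant being HSBP1, a small HSF1-binding protein (73.6 and 89.2 against 63.6 and 59.3 TPM, limma adjusted p = 0.21), and HSBP1L1 (21.3 and 34.6 against 18.8 and 30.4 TPM).

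HSP90 is the chaperone of kinases and steroid receptors, made from an abundant constitutive gene, HSP90AB1, and a more inducible one, HSP90AA1. HSP90AB1 (chromosome 6, 44246166 to 44253888, plus strand) was at 684 and 699 TPM with shNUP210 and at 517 and 471 TPM with shCon. Both knockdown libraries lay above both controls, at 1.40 times the control mean (log2 fold change 0.49, SE 0.09, limma adjusted p = 0.0519). HSP90AA1 (chromosome 14, 102080738 to 102139699, minus strand) was at 225 and 238 against 179 and 175 TPM, again without overlap (log2 fold change 0.38, SE 0.10, limma adjusted p = 0.11). Of all genes, 42.9% were likewise higher in shNUP210 without overlap. With trimmed-mean scaling the log2 fold changes fell to 0.24 for HSP90AB1 and 0.14 for HSP90AA1. HSP90AB1 exceeded HSP90AA1 3.03- and 2.94-fold in shNUP210 and 2.88- and 2.69-fold in shCon. Scaling by 1 factor per library leaves this ratio as it is, and quantile normalization does not. The groups did not overlap on this ratio, but the gap between them was smaller than the range within shCon.

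Of the HSP90 co-chaperones outside the symbol rule, 19 of 19 could be tested, 0 were called and their median log2 fold change was 0.25. CDC37, which brings kinases to HSP90, was the most abundant of them (419 and 440 against 339 and 334 TPM, limma adjusted p = 0.093). STIP1, the adaptor between HSP70 and HSP90, was at 161 and 191 against 132 and 134 TPM, with both knockdown libraries higher (log2 fold change 0.39, SE 0.13, limma adjusted p = 0.15). Per unit of summed HSP90 transcript STIP1 was at 0.177 and 0.204 in shNUP210 and at 0.190 and 0.208 in shCon, so the groups overlapped on that scale.

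HSPA8 (chromosome 11, 123057489 to 123063230, minus strand), the constitutive cytosolic HSP70 that also uncoats clathrin vesicles, was the most abundant HSP70 transcript. It was at 533 and 511 TPM with shNUP210 and at 405 and 450 TPM with shCon (log2 fold change 0.29, SE 0.09, limma adjusted p = 0.15). HSPA1A and HSPA1B, the classical stress-inducible pair, stood next. HSPA1A was at 224 and 199 against 163 and 139 TPM (limma adjusted p = 0.11), and HSPA1B was at 148 and 145 against 119 and 120 TPM (limma adjusted p = 0.19). In all 3 genes both knockdown libraries lay above both controls, as they did for 42.9% of all genes. The log2 fold changes of HSPA8 and HSPA1B (0.29 each) were near the 0.23 shift of all genes. Among genes with a mean of 100 to 500 TPM, these 3 included, that shift was 0.09.

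HSPA1A (chromosome 6, 31815464 to 31817946) and HSPA1B (31827735 to 31830255, both plus strand) are neighbours. Of the 50-base windows in HSPA1A transcripts, 71.3% occur letter for letter in HSPA1B, and the 250 upstream bases differ by 16 edits, so their separate values depend on how reads were shared out. Summed before the log, the pair was at 372 and 344 TPM in shNUP210 and at 282 and 259 TPM in shCon (log2 fold change 0.40, SE 0.10, limma adjusted p = 0.096). HSPA8 exceeded that sum 1.43- and 1.49-fold in shNUP210 and 1.43- and 1.74-fold in shCon, with overlapping groups. On this ratio no difference between the inducible pair and the constitutive gene was detectable.

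Other HSP70 genes covered a wide range. HSPA9, the mitochondrial HSP70 that pulls precursors through the inner membrane, was at 133 and 153 against 119 and 122 TPM (limma adjusted p = 0.29). HSPA2, named here for its fold after values were seen, is best known from male germ cells; it was at 28.5 and 26.2 TPM in shNUP210 and at 15.2 and 11.4 TPM in shCon (2.06-fold, log2 fold change 1.00, SE 0.25, limma adjusted p = 0.091). It had the highest fold of the tested members. HSPA13 and HSPA14 ranged from 2.99 to 24.4 TPM, with both knockdown libraries higher for each. HSPA6, the strictly inducible HSP70 of human cells, was at 0.23 and 0.99 TPM against 0.58 TPM in both shCon libraries, HSPA1L at 0.33 to 1.84 TPM and HSPA12B at 0.21 to 0.93 TPM. These 3 were below the filter and were not tested.

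HSP110 proteins are large HSP70 relatives that release ADP from HSP70 and hold unfolded chains in solution. HSPH1 (chromosome 13, 31134974 to 31162388, minus strand) was at 62.8 and 64.8 TPM with shNUP210 and at 37.5 and 39.0 TPM with shCon. The libraries of each group lay close together, and the knockdown mean was 1.67 times the control mean (log2 fold change 0.72, SE 0.15, limma adjusted p = 0.072). HSPA4 (chromosome 5, 133051962 to 133106449, plus strand) was at 66.7 and 89.1 against 47.3 and 50.4 TPM (log2 fold change 0.65, SE 0.19, limma adjusted p = 0.12). HSPA4L was at 2.70 to 4.66 TPM and was not tested. The ratio of HSPH1 to HSPA8 within a library was 0.118 and 0.127 in shNUP210 and 0.0928 and 0.0865 in shCon, so the exchange factor stood higher relative to its HSP70 in both knockdown libraries.

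**Figure D2:**
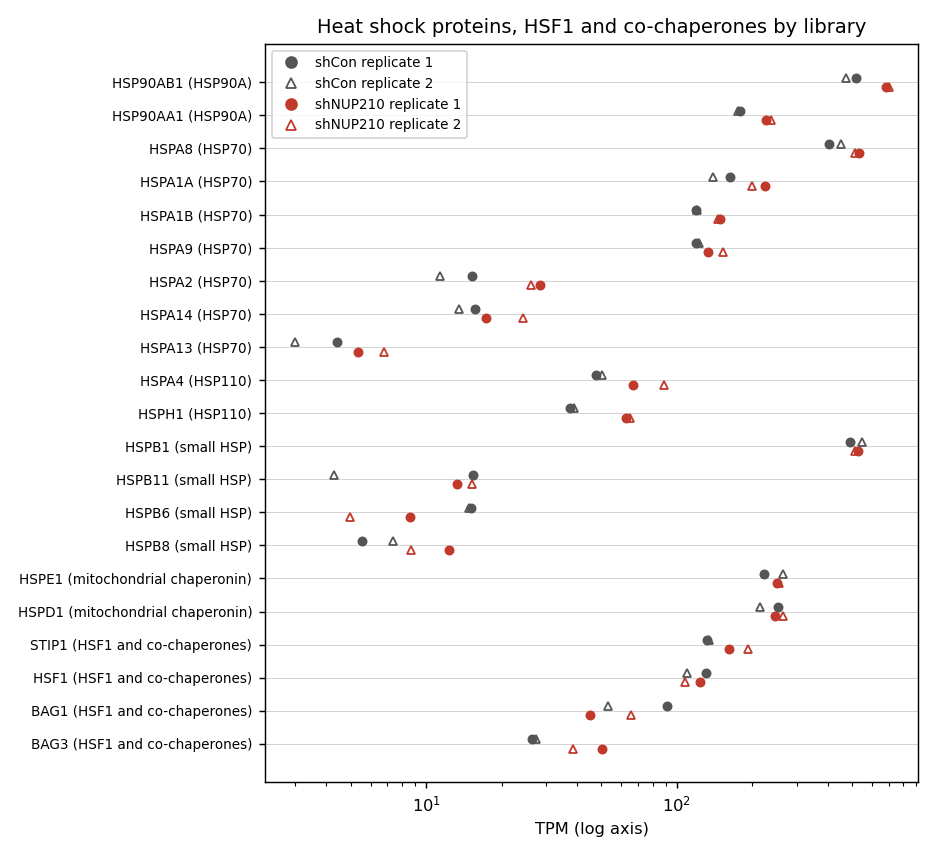
TPM (log axis) of the 21 tested heat shock protein, HSF1, BAG and STIP1 genes, grouped by family, with 1 point per library: grey for shCon, red for shNUP210, filled circles for replicate 1 and open triangles for replicate 2. HSPH1, HSP90AB1 and HSPA2 show a gap between the groups, HSPB1 and HSF1 overlap, and HSPB6 has both red points to the left.

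The BAG proteins are exchange factors of HSP70 with a shared BAG domain, and BAG3 also links HSP70 to small heat shock proteins in selective autophagy. BAG3 (chromosome 10, 119651370 to 119677819, plus strand) was at 50.2 and 38.5 against 26.4 and 27.5 TPM, with both knockdown libraries higher (1.65-fold, log2 fold change 0.69, SE 0.21, limma adjusted p = 0.13). BAG1, which ties HSP70 to the proteasome, was at 45.0 and 65.8 against 90.8 and 53.1 TPM and overlapped between the groups (log2 fold change -0.35, SE 0.31, limma adjusted p = 0.53). The log2 fold change of BAG1 was 0.03 without shCon replicate 1, so its sign rests on that library. BAG3 over BAG1 was 1.12 and 0.585 in shNUP210 and 0.290 and 0.518 in shCon, with a gap between the groups smaller than the range within either.

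Of 16 other HSP70 co-chaperones and J-domain proteins with other symbols, 13 could be tested and 0 were called, with a median log2 fold change of 0.19. The most abundant were STUB1, the ubiquitin ligase CHIP that marks HSP70 and HSP90 clients (292 and 405 against 292 and 313 TPM, limma adjusted p = 0.53), and BAG6, which guards membrane proteins in the cytosol (127 and 146 against 185 and 169 TPM, limma adjusted p = 0.16). BAG6 lay lower in both knockdown libraries.

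J-domain proteins bring clients to HSP70 and trigger its ATPase. DNAJB6 (chromosome 7, 157335381 to 157417439, plus strand), known for holding back polyglutamine aggregation, was the most abundant of the 31 tested J-domain genes. It was at 248 and 209 TPM with shNUP210 and at 141 and 131 TPM with shCon (1.68-fold, log2 fold change 0.74, SE 0.13, limma adjusted p = 0.0501). DNAJB1, the classical HSP40 and a heat-inducible partner of HSPA8, was at 86.1 and 96.5 against 69.4 and 69.7 TPM (log2 fold change 0.38, SE 0.14, limma adjusted p = 0.17), and its exons overlap those of TECR by 211 bases. Both genes lay higher in both knockdown libraries, and DNAJB6 over DNAJB1 was 2.88 and 2.17 in shNUP210 and 2.03 and 1.87 in shCon. On this ratio the gap between the groups was smaller than the range within shNUP210.

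DNAJB2, a neuronal J-domain protein with ubiquitin-binding motifs, was at 55.9 and 38.1 against 48.5 and 38.8 TPM and overlapped between the groups (limma adjusted p = 0.85). Among the type A proteins, DNAJA1, the closest human relative of the yeast cytosolic co-chaperone Ydj1, was at 110 and 94.7 against 74.5 and 66.1 TPM (log2 fold change 0.54, SE 0.15, limma adjusted p = 0.12). DNAJA3, the mitochondrial member, was at 93.1 and 84.5 against 80.5 and 66.4 TPM, and DNAJA2 was at 19.1 and 23.0 against 19.0 and 13.99 TPM (limma adjusted p 0.33 and 0.46). All 3 had both knockdown libraries above both controls, as 42.9% of all genes did. For DNAJA2 the lowest knockdown and highest control libraries differed by little (19.1 and 19.0 TPM). After trimmed-mean scaling the log2 fold changes were 0.30 for DNAJA1, 0.03 for DNAJA3 and 0.11 for DNAJA2.

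The DNAJC genes, which share only the J domain and serve many compartments, ran from -0.74 to 0.86 on the log2 scale over their 20 tested members. Of these 11 were higher and 2 lower in both knockdown libraries, against 42.9% and 14.3% of all genes. DNAJC7 (chromosome 17, 41976433 to 42021376, minus strand), a cytosolic protein that binds both HSP70 and HSP90, was at 54.5 and 59.5 against 34.0 and 28.9 TPM (log2 fold change 0.84, SE 0.18, limma adjusted p = 0.072). Its exons overlap those of CNP and NKIRAS2 on the other strand by 401 and 484 bases. DNAJC8, a splicing-associated protein, was at 59.2 and 60.4 against 49.6 and 36.4 TPM, and DNAJC5, the cysteine string protein of secretory vesicles, was at 47.7 and 56.6 against 42.6 and 38.4 TPM (limma adjusted p 0.21 and 0.28).

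Of the 20 tested DNAJC genes 15 had a log2 fold change above 0, against 68.9% of all genes. DNAJC19 and DNAJC17 were the 2 that lay lower in both knockdown libraries. DNAJC19 (chromosome 3, 180983709 to 180989774, minus strand), which resembles the J-domain subunit of the mitochondrial import motor, was at 17.4 and 12.3 TPM with shNUP210 and at 22.5 and 27.9 TPM with shCon (log2 fold change -0.74, SE 0.27, limma adjusted p = 0.18). DNAJC17, a nuclear protein, was at 23.3 and 17.9 against 27.4 and 26.0 TPM (log2 fold change -0.37, SE 0.23, limma adjusted p = 0.36), and its exons overlap those of GCHFR by 1151 bases on the other strand. DNAJC4 was at 17.5 and 17.9 against 16.9 and 30.1 TPM, and its log2 fold change moved from -0.34 to 0.06 without shCon replicate 2. DNAJC18 was at 0 in shNUP210 replicate 2 and at 11.0 TPM in replicate 1, with 1.13 and 6.61 TPM in the controls.

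**Figure D3:**
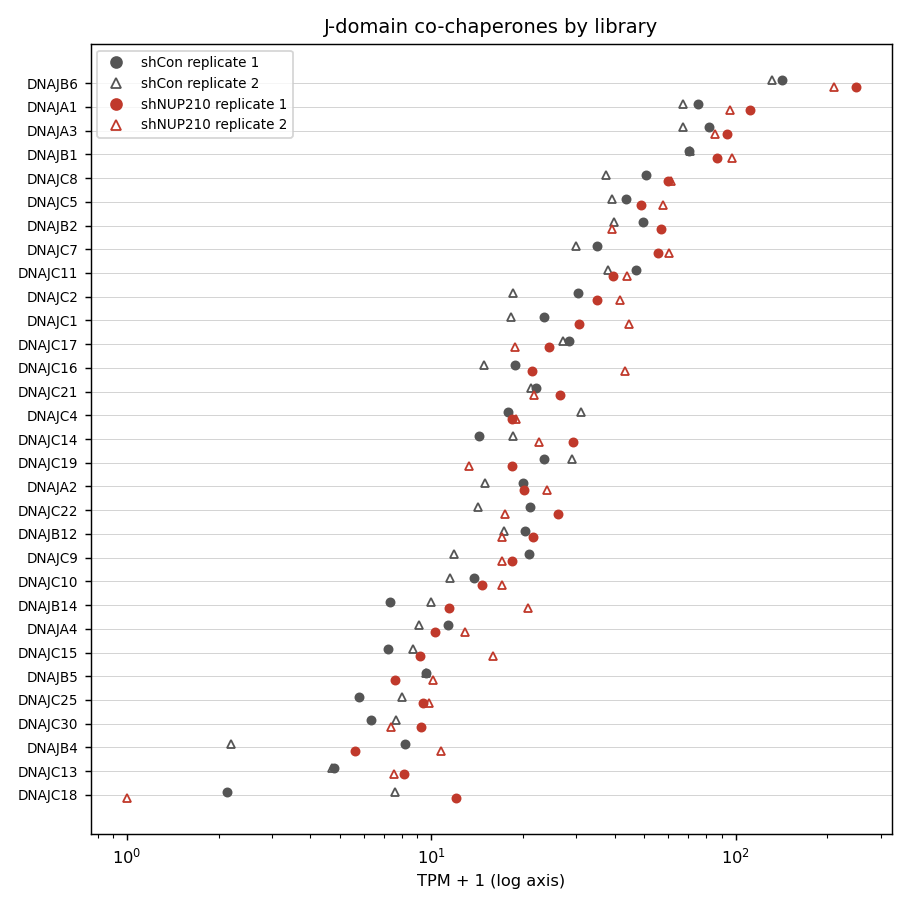
TPM + 1 (log axis) of the 31 tested DNAJA, DNAJB and DNAJC genes in order of mean level, 1 point per library, with colours and symbols for group and replicate as in the legend. DNAJB6 stands at the top with a gap between the groups, and DNAJC19 and DNAJC17 have both red points to the left.

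Summed, the J-domain genes DNAJA, DNAJB and DNAJC gave 1167 and 1141 TPM in shNUP210 and 906 and 814 TPM in shCon. The HSP70 sum over this J-domain sum was 0.936 and 0.935 in shNUP210 and 0.931 and 1.06 in shCon, so HSP70 and its J-domain partners kept overlapping proportions in the 2 groups.

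Small heat shock proteins hold unfolding proteins without using ATP. HSPB1 (HSP27; chromosome 7, 76302544 to 76304295, plus strand), which also caps actin filaments, was among the most abundant members, at 528 and 511 TPM in shNUP210 and at 488 and 547 TPM in shCon. The groups overlapped (log2 fold change 0.01, 95% confidence interval -0.22 to 0.24, limma adjusted p = 0.97). The upper bound is about the shift of all genes, and after trimmed-mean scaling the log2 fold change was -0.23 (limma adjusted p = 0.27). Among genes with a mean of 500 TPM and more, HSPB1 included, the median was -0.07 before that scaling. HSPB1 was therefore not below genes of like level.

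HSPB6 (HSP20; chromosome 19, 35754569 to 35758079, minus strand), a muscle-enriched relative, was at 8.60 and 4.95 TPM with shNUP210 and at 15.1 and 14.8 TPM with shCon. Both knockdown libraries were lower, at 0.454 of the control mean (log2 fold change -1.08, SE 0.35, 95% confidence interval -1.94 to -0.21, limma adjusted p = 0.15). It had the lowest fold of the tested members, and its exons overlap those of AC002398.12 by 657 bases on the other strand. HSPB8, the small heat shock protein that works with BAG3, was at 12.3 and 8.73 against 5.57 and 7.37 TPM (limma adjusted p = 0.33). HSPB11, an intraflagellar transport protein also known as IFT25, was at 13.3 and 15.3 against 15.4 and 4.28 TPM, and without shCon replicate 2 its log2 fold change moved from 0.71 to -0.11. HSPB2, HSPB7 and HSPB9 were at 2.59 TPM or less in every library and were not tested.

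TRiC is built from 2 stacked rings of 8 different subunits, each present once per ring. The 8 subunit transcripts did not stand at equal levels. In order of mean TPM over the 4 libraries they were CCT3, CCT7, TCP1, CCT6A, CCT4, CCT2, CCT5 and CCT8, and the highest exceeded the lowest 4.35- and 4.76-fold in shNUP210 and 5.51- and 5.88-fold in shCon. The ranges over the 4 libraries did not overlap between CCT7 (288 to 341 TPM) and TCP1 (196 to 278 TPM), nor between CCT6A (159 to 246 TPM) and CCT4 (114 to 148 TPM). The other neighbours in that order overlapped, and in shCon alone the mean of CCT5 (81.8 TPM) was above that of CCT2 (78.2 TPM). CCT6B, a testis-type copy of CCT6A, was at 0.66 TPM in 1 shCon library and at 0 in the others.

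CCT2 (chromosome 12, 69585334 to 69601570, plus strand) differed most between the groups. It was at 126 TPM in both shNUP210 libraries and at 76.3 and 80.1 TPM with shCon (1.61-fold, log2 fold change 0.68, SE 0.12, 95% confidence interval 0.38 to 0.99, limma adjusted p = 0.0531). CCT3 (chromosome 1, 156308968 to 156367873, minus strand) was at 353 and 344 against 326 and 331 TPM (log2 fold change 0.09, 95% confidence interval -0.13 to 0.31, limma adjusted p = 0.57). CCT7 (chromosome 2, 73233420 to 73253021, plus strand) was at 341 and 288 against 303 and 305 TPM and overlapped (log2 fold change 0.04, 95% confidence interval -0.24 to 0.33, limma adjusted p = 0.86). After trimmed-mean scaling the log2 fold changes of CCT3 and CCT7 were -0.16 and -0.20, so neither has a direction that holds across scalings.

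Proportions within the complex are not altered by scaling with 1 factor per library, though quantile normalization can alter them. CCT2 made up 7.78 and 8.36% of the 8-subunit sum in shNUP210 and 5.66 and 6.08% in shCon, and CCT5 and CCT8 were also higher in both knockdown libraries. CCT3 (21.8 and 22.8% against 24.1 and 25.1%) and CCT7 (21.0 and 19.1% against 22.5 and 23.2%) were lower in both. TCP1, the founding subunit (278 and 213 against 215 and 196 TPM, limma adjusted p = 0.38), CCT4 and CCT6A overlapped in share. These shares were not tested, and they add up to a fixed total, so a higher share of some subunits lowers the others.

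**Figure D4:**
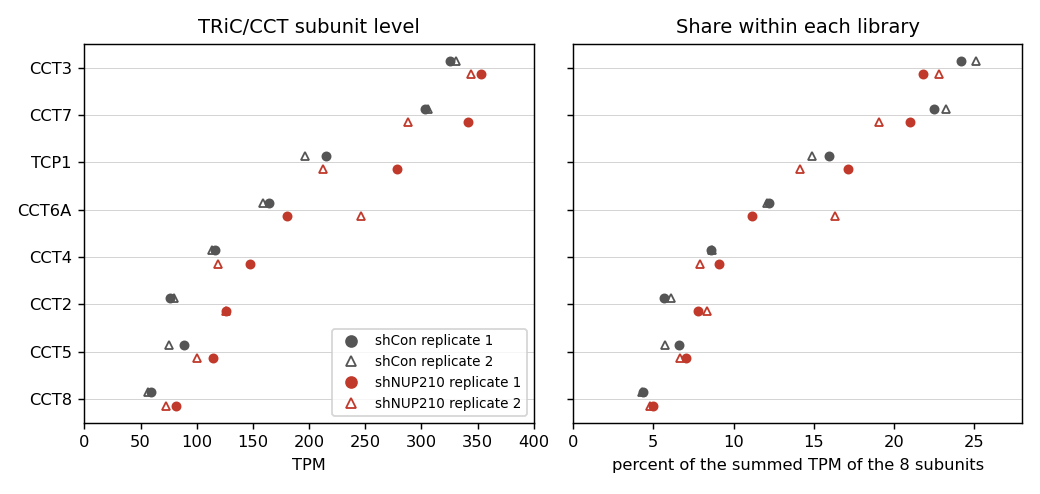
TRiC/CCT subunits in order of mean level: TPM (left) and percent of the summed TPM of the 8 subunits within each library (right), 1 point per library with colours and symbols for group and replicate as in the legend. CCT2 is separated between the groups in both panels, and CCT3 and CCT7 have lower shares in both shNUP210 libraries.

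Prefoldin carries new actin and tubulin chains to TRiC. Of 12 prefoldin and TRiC cofactor genes, all could be tested, 0 were called and the median log2 fold change was 0.21. The most abundant were PFDN5 (311 and 356 against 243 and 267 TPM, limma adjusted p = 0.13) and PFDN2 (233 and 225 against 193 and 190 TPM, limma adjusted p = 0.19), both higher in both knockdown libraries.

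HSPD1 (HSP60) and HSPE1 (HSP10) form the folding chamber of the mitochondrial matrix and are transcribed head to head from chromosome 2, at 197486581 to 197516737 (minus strand) and 197499994 to 197503457 (plus strand), with 281 bases of exon in common. HSPD1 was at 246 and 266 against 253 and 215 TPM (log2 fold change 0.13, 95% confidence interval -0.17 to 0.43, limma adjusted p = 0.54). HSPE1 was at 250 and 256 against 223 and 264 TPM (log2 fold change 0.06, 95% confidence interval -0.24 to 0.35, limma adjusted p = 0.79). Both overlapped between the groups, and their ratio was 0.984 and 1.04 in shNUP210 and 1.13 and 0.814 in shCon.

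Of 17 other genes known to carry heat shock elements, 16 could be tested, 0 were called and the median log2 fold change was 0.10. The most abundant were CLU, the secreted chaperone clusterin (3757 and 3977 against 4055 and 4198 TPM, limma adjusted p = 0.37), and UBB, a polyubiquitin gene (1519 and 1419 against 1340 and 1399 TPM, limma adjusted p = 0.43). Of 15 chaperones and proteases of the endoplasmic reticulum and mitochondria outside the symbol rule, 0 were called and the median was 0.21, with CALR (835 and 774 against 743 and 760 TPM, limma adjusted p = 0.48) and CANX (255 and 269 against 213 and 258 TPM, limma adjusted p = 0.48) the most abundant. None of these 6 lists outside the rule held a called gene, against 2.86% of all genes tested. CHORDC1, FKBP4, AHSA1 and PPID stand both among the HSP90 co-chaperones and among the other heat shock element genes. At an unadjusted limma p under 0.05, which 18.4% of all genes passed as higher and 5.95% as lower, 2 HSP90 co-chaperones were higher and 0 lower, with 2 and 1 for the HSP70 co-chaperones, 2 and 1 for prefoldin and TRiC cofactors, 0 and 0 for heat shock factors and regulators, 1 and 1 for the other heat shock element genes, and 2 and 0 for the organelle chaperones.

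The median fold change of all genes differed by expression level, so the members were also set beside genes of like level. Among genes with a mean of 100 to 500 TPM the median log2 fold change was 0.09 over all 1155 genes and 0.25 over the 17 members in that range. At 20 to 100 TPM it was 0.23 over all genes and 0.40 over 23 members, and at 5 to 20 TPM it was 0.32 and 0.34 (17 members). At 500 TPM and more it was -0.07 over 277 genes and 0.25 over 2 members.

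**Figure D5:**
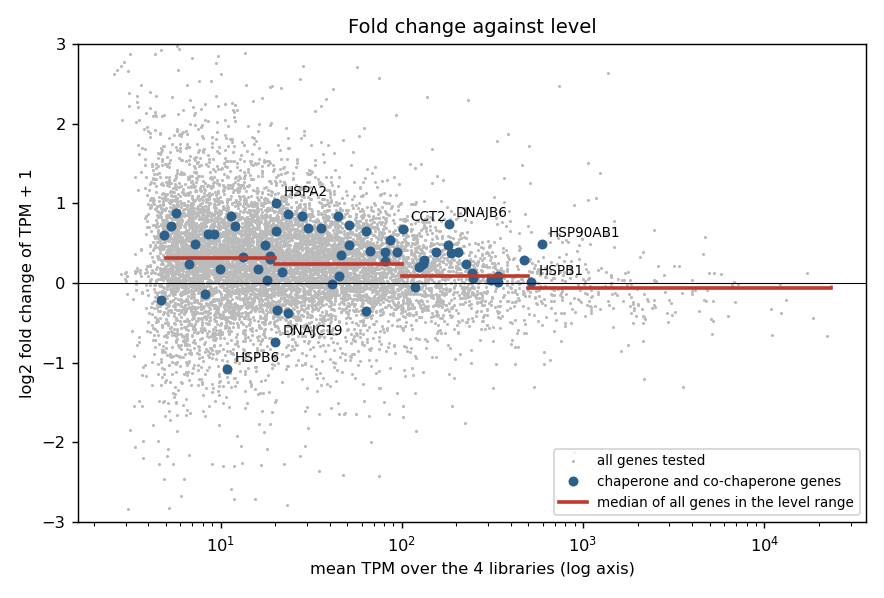
Log2 fold change of TPM + 1 against mean TPM over the 4 libraries (log axis) for all genes tested (grey) and the 61 tested members (blue), with red bars for the median of all genes in 4 level ranges; 44 genes lie outside the plotted range of -3 to 3. DNAJB6, CCT2 and HSP90AB1 sit above the red bars at 100 TPM and more, and HSPB6 and DNAJC19 sit below them.

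Of the 6 antisense and read-through loci, DNAJC9-AS1 alone passed the filter, at 347 and 338 TPM in shNUP210 and 347 and 329 TPM in shCon (log2 fold change 0.02, limma adjusted p = 0.92). That is far above DNAJC9 itself (10.8 to 19.9 TPM). Its exons overlap those of DNAJC9, MRPS16 and TTC18 on the other strand by 182, 395 and 331 bases, so its level may hold reads of those genes. DNAJC3-AS1 was at 0.52 to 1.02 TPM, and HSPE1-MOB4 was at 2.44 TPM in shNUP210 replicate 2 and at 0 in the others.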

How the data were processed

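The authors deposited 1 table per library with a TPM value per gene, and the totals of 999993 to 999998 per library fit that unit. Trimmomatic, STAR, RSEM and DESeq with the hg38 build are named per the submitters' processing notes, without versions or roles; no annotation release is named. Total RNA was isolated by Trizol and prepared with a TruSeq kit, per the labels' protocols.

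From these values log2(TPM + 1) was tested with limma 3.58.1 (R 4.3.3; eBayes with a mean-variance trend) on 10140 genes with at least 5 TPM in 2 libraries. The test was two-sided, with Benjamini-Hochberg adjustment over all genes tested and a threshold of 0.05. It was tested on simulated data with known changes, which were larger than those of most members. That run does not show how the test performs for smaller changes. Fold changes on this scale understate changes of low genes. Positions and exon overlaps of 100 bases or more come from GENCODE 29 on GRCh38, which held 78 of the 79 members, and 29 members have such an overlap.

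The members, the lists, the filter and the scaling were chosen with earlier results of these data known. The text names members with a call, the 3 most abundant of each family, HSF1, BAG1, BAG3, STIP1, TCP1, HSPA1A, HSPA1B, HSPA1L and the 5 lowest p-values in each direction. Of the other lists it names up to 4 called genes or the 2 most abundant, and further members are given as values; 1 gene that this rule names is not reported here. Alternatives were other filters, pseudocounts and scalings, no variance trend, a replicate block and leaving out each library. Paralogs and pseudogene copies may share reads.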

Additional observations from a re-analysis of the deposited data

How the results depend on the processing

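No member was called in the main setting. The count was 3 with a filter of 1 TPM in all 4 libraries, 3 with a pseudocount of 5 and 0 in the 13 other settings, including each library left out. Over all genes the 290 calls became 14 with no filter (2972 genes at an unadjusted p under 0.05), 57 with a filter of 1 TPM in 2 libraries, 0 by limma without the variance trend (2290 genes at an unadjusted p under 0.05), and 4 to 27 with 1 library left out. With the replicate number as a block there were 63 calls over all genes and 0 among the members; the labels tie the numbers to nothing shared, and the deviations of the same-numbered libraries correlated at 0.023 over 10140 genes, so the samples were taken to share only a number. Trimmed-mean, median-ratio and quantile scaling gave 328, 329 and 205 calls, and a higher-to-lower split of 78 to 250, 81 to 248 and 87 to 118 in place of 181 to 109. Small log2 fold changes of members that were not called changed sign with the scaling. With trimmed-mean and median-ratio scaling they were -0.16 and -0.15 for CCT3, -0.20 and -0.20 for CCT7, -0.15 and -0.15 for DNAJB2, -0.22 and -0.22 for DNAJC9-AS1, -0.23 and -0.23 for HSPB1, -0.11 and -0.11 for HSPD1, and -0.18 and -0.18 for HSPE1. With quantile normalization they were -0.011 for CCT7, -0.13 for DNAJB2, -0.042 for DNAJC9-AS1 and -0.016 for HSPB1. With 1 library left out, the log2 fold change ran from -0.73 to 0.034 for BAG1, -0.082 to 0.16 for CCT7, -0.18 to 0.36 for DNAJB2, -0.74 to 0.063 for DNAJC4, -0.019 to 0.056 for DNAJC9-AS1, -0.17 to 0.076 for HSF1, -0.074 to 0.091 for HSPB1, -0.11 to 1.53 for HSPB11 and -0.061 to 0.18 for HSPE1. The cause was not tested. In the fits without 1 library the lone sample of a group is assumed to vary like the other group. TPM keep no read depth, so no counting error can be given for members with low values.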

Other observations

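Among the 14 pseudogenes that the symbol rule left out, HSPE1P12 was at 24.4 TPM in shNUP210 replicate 1 and at 0 in the other 3 libraries. DNAJC19P5 was at 9.58 TPM in the same library and at 0 in the others. The other 12 were at 3.28 TPM or less in every library.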
